A study of Mus musculus with 10 samples.

Results

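The nuclear receptor genes outside the circadian clock were examined in the lungs of mice with increased pulmonary blood flow (IPF). Members were the protein-coding genes of the expression table whose symbols follow the nuclear receptor nomenclature (Nr genes with a family number, and the Ppar, Rar, Rxr, Esr, Esrr, Thr and Vdr genes). Nr1d1, Nr1d2, Nr3c1 and Nr4a1 were set aside. This gave 39 genes of 54532 in the table, of which 22046 were protein-coding. One of the 39, Nr2c2ap, encodes a protein that binds the receptor NR2C2 and is not itself a receptor.

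Whole-lung mRNA was sequenced from wild-type C57BL/6J mice at postnatal day 30 (P30). Mice of the IPF group had received an aortocaval fistula at P7, in which a needle was passed from the abdominal aorta into the inferior vena cava. Sham mice had the same anesthesia and laparotomy at P7 without the puncture. Mice of both sexes were operated on according to the study's methods. Each group held 5 samples, and every value given with ± is a mean with the SD over the 5 samples of its group.

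Nuclear receptors are transcription factors that many small lipophilic molecules switch on, among them thyroid hormone, retinoic acid, vitamin D, steroids, oxysterols and fatty acids. Most bind DNA as pairs, and the retinoid X receptors are the shared partner of the retinoic acid, thyroid hormone, vitamin D, PPAR and liver X receptors. In the lung, retinoic acid signaling is known for its part in alveolar formation, and PPAR gamma and the liver X receptors for lipid handling in macrophages and alveolar epithelium.

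Total reads recovered from the table ran from 16250190 to 19026843 in the IPF samples and from 15483046 to 17818542 in the sham samples. Markers of lung cells were present throughout. Sftpc, the surfactant protein C gene of alveolar type 2 cells, stood between 9437 and 16510 FPKM (fragments per kilobase of transcript, scaled to the mapped total of each library). Of 5 liver genes, Serpina1a and Fgb were at 0, and Apoa1 and Ttr had at most 3 reads in a sample. Alb was at 0.319 to 0.745 FPKM. Several features other than the surgery separated the groups. The X-inactivation transcript Xist was at 26.8 to 43.2 FPKM in the IPF samples and at most 0.0767 in the sham samples, while the Y-linked gene Ddx3y was at 0 in all IPF samples and at 14.3 to 21.4 in the sham samples. Sex and surgery cannot be told apart in these samples. Of 16 circadian clock genes, 15 passed the test (4 higher and 11 lower in IPF). The hour of tissue collection is not given in the sources used here. The part of sex and of the clock in the results below was not tested. Summed markers of endothelial cells (995 to 1128 FPKM in IPF, 855 to 904 in Sham; 1 of 5 called, Cldn5, without which the sums overlapped) and of lymphocytes (21.8 to 31.5 against 11.1 to 18.0; 3 of 6 called) also did not overlap. IPF replicate 5 had the highest summed neutrophil markers (286 FPKM, against 11.8 to 68.9 elsewhere), and IPF replicate 4 and sham replicate 3 had cardiac muscle markers at 87.8 and 74.9 FPKM against 1.06 to 3.57 in the other samples.

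The 30 members that were tested (mean of at least 0.1 FPKM over the 10 samples) covered a wide range of levels. Levels are compared here in FPKM, which is scaled per transcript length. Averages of at least 10 FPKM were found for 10 members: Thra, Nr1h2, Nr1h3, Rxra, Rarg, Rxrb, Rara, Nr2f2, Esrra and Nr2f6. Another 11 were between 1 and 10 FPKM, and 9 were below 1. Over all samples, Nr1h2 ranged from 23.2 to 29.8 FPKM, Pparg from 2.01 to 4.26 and Esr1 from 0.0989 to 0.337. Neighbors in the order often overlapped, as did Nr1h2, Nr1h3 and Rxra.

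**Figure D1:**
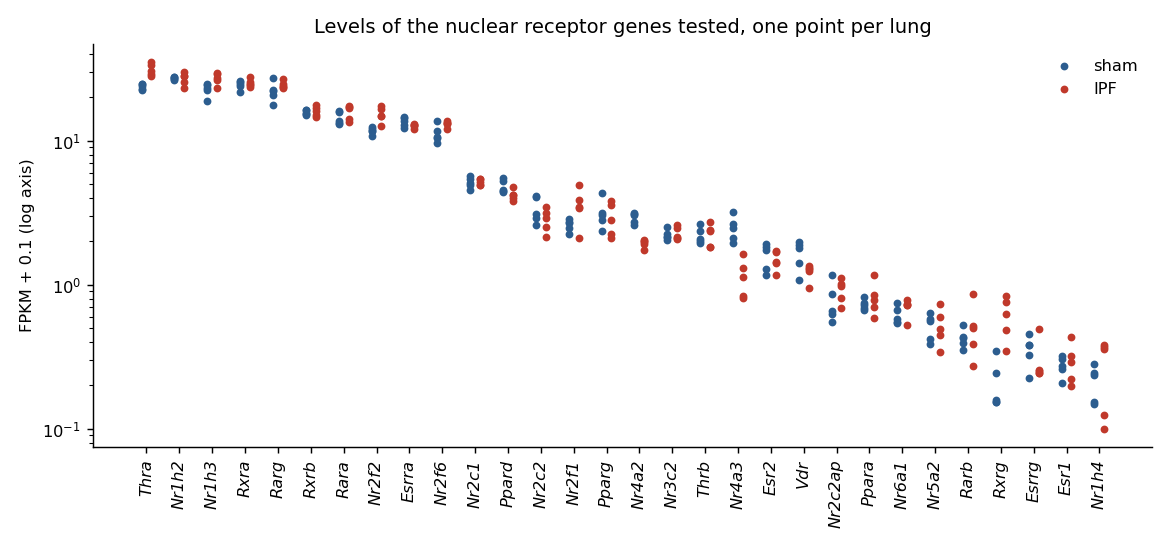
Levels of the 30 tested nuclear receptor genes in each lung sample (FPKM + 0.1 on a log axis), ordered by mean, with sham samples in blue and IPF samples in red and 1 point per sample. The 10 genes at the left average at least 10 FPKM, and the 9 at the right average below 1.

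The remaining 9 members stayed below the limit of 0.1 FPKM. No read was found for Nr0b1, Nr2e1 or Nr2e3. A count of 0 allows up to 3 reads, which for these 3 genes corresponds to at most 0.109, 0.0530 and 0.0584 FPKM in a sample, counting error only. The others were Esrrb, Nr0b2, Nr1h5, Nr1i2, Nr1i3 and Nr5a1, with at most 11 reads in any sample and an average of at most 0.0832 FPKM. Nr1i2 and Nr1i3 encode the xenobiotic receptors PXR and CAR, and Nr5a1 encodes the steroidogenic factor of adrenal and gonad.

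The question for each tested member was whether its level differed between IPF and sham lungs. By the limma test, 5 receptor genes passed at an adjusted p below 0.05. Rxrg, Thra and Nr2f2 rose in IPF lungs, and Nr4a2 and Nr4a3 fell. That was 16.7% of the members tested, beside 5.85% of all 20448 genes tested. By direction, 10% of the members rose (3.71% of all genes) and 6.67% fell (2.14% of all genes). A further limit of an absolute log2 fold change above 1 was passed by Nr4a3 and Rxrg, or 6.67% of the members, beside 1.14% of all genes. The 5 called members were also the only tested members whose groups did not overlap (7.29% of all genes did not overlap). The median log2 fold change was 0.044 over the members and 0.0016 over all genes. For the 25 members that were not called, estimates lay between -0.38 and 0.41 on the log2 scale. Their 95% intervals stayed within 0.5 of no change for 13 members and within 1 for 24, Nr1h4 being the exception. In a bulk sample, a lower level can come from fewer cells of a type or from less RNA per cell, and these cannot be told apart.

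**Figure D2:**
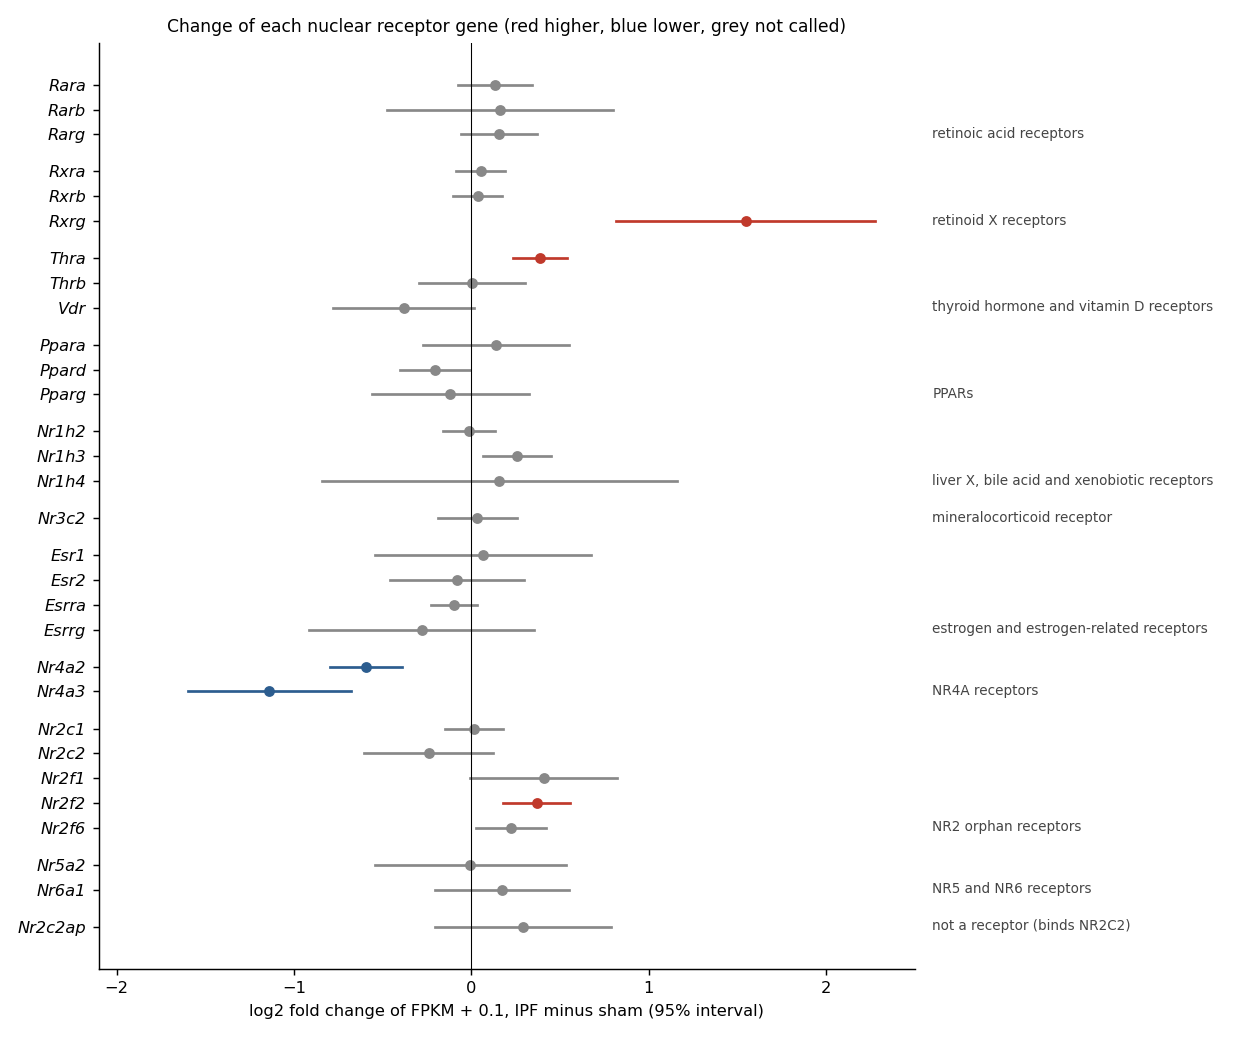
Log2 fold change of FPKM + 0.1 (IPF minus Sham, n = 5 per group) for the 30 tested members, grouped by receptor class, with 95% intervals. Rxrg, Thra and Nr2f2 (red) lie above 0, Nr4a2 and Nr4a3 (blue) below, and the other 25 members (grey) were not called.

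Both NR4A receptors among the members fell in IPF lungs. The NR4A proteins are orphan receptors whose genes are switched on quickly by growth factors, calcium and cyclic AMP. Nr4a2 (ENSMUSG00000026826, GRCm38 chromosome 2, 57106830 to 57124003, minus strand) was at 1.94, 1.80, 1.63, 1.91 and 1.89 FPKM in IPF replicates 1 to 5. In sham replicates 1 to 5 it was at 3.06, 2.94, 2.49, 3.02 and 2.62 FPKM. Every IPF sample lay below every sham sample. The means were 1.83 ± 0.126 and 2.83 ± 0.258 FPKM, a log2 fold change of -0.59 (SE 0.09, limma adjusted p = 0.00415).

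Nr4a3 (ENSMUSG00000028341, chromosome 4, 48045153 to 48086447, plus strand) changed more. Its level was 1.20, 0.741, 0.707, 1.54 and 1.03 FPKM in the IPF samples and 3.08, 1.86, 2.00, 2.36 and 2.53 FPKM in the sham samples. The groups did not overlap here either, although the highest IPF sample and the lowest sham sample were close. The means of 1.04 ± 0.344 and 2.37 ± 0.481 FPKM gave a 2.20-fold lower level in IPF on the log2(FPKM + 0.1) scale (log2 fold change -1.14, SE 0.21, limma adjusted p = 0.0094). Both genes stayed below the threshold in each of the 10 fits that left out 1 sample. Nr4a1, the third gene of this family, was set aside by the rule. It was at 9.17 ± 1.82 FPKM in IPF and 9.15 ± 1.99 FPKM in Sham, with a log2 fold change of 0.0050 (95% interval -0.35 to 0.36, limma adjusted p = 0.993).

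The sequences before the starts of Nr4a2 and Nr4a3 are shown because these are the members that fell, and because both hold repeated matches to TGACG, the half-site of the cyclic AMP response element. Sequences come from the RefSeq promoter table (GRCm38.p6), in which 37 of the 39 members had at least 1 window. Thra was not among them. Capitals mark TGACG on either strand (CGTCA when read from the other strand). For Nr4a2 the 250 bases at chr2:57124004-57124253 (minus strand) hold 4 matches. For Nr4a3 the window is cut where the gene begins in the expression table, leaving 98 bases at chr4:48045055-48045152 (plus strand) with 3 matches.
Nr4a2: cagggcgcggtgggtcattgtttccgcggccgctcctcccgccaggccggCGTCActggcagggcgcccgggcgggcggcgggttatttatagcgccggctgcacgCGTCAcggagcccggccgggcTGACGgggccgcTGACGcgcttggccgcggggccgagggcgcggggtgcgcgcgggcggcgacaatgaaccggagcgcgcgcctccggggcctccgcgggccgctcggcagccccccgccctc
Nr4a3: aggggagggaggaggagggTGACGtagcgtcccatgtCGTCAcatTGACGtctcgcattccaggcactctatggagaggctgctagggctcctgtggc
In the full windows of 250 bases both genes held 4 matches. Of 32851 windows of this length, 45 (0.137%) hold at least 4, and 2 of those are the windows of these members. Because the motif was picked for its repeats in these windows and 4 is the number they hold, this share is no test. At least 1 match is common, in 17.8% of all windows and 21.4% of the 56 member windows. The complete palindrome TGACGTCA was in neither window of the pair. These letter matches are a description and not evidence of a bound site.

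**Figure D3:**
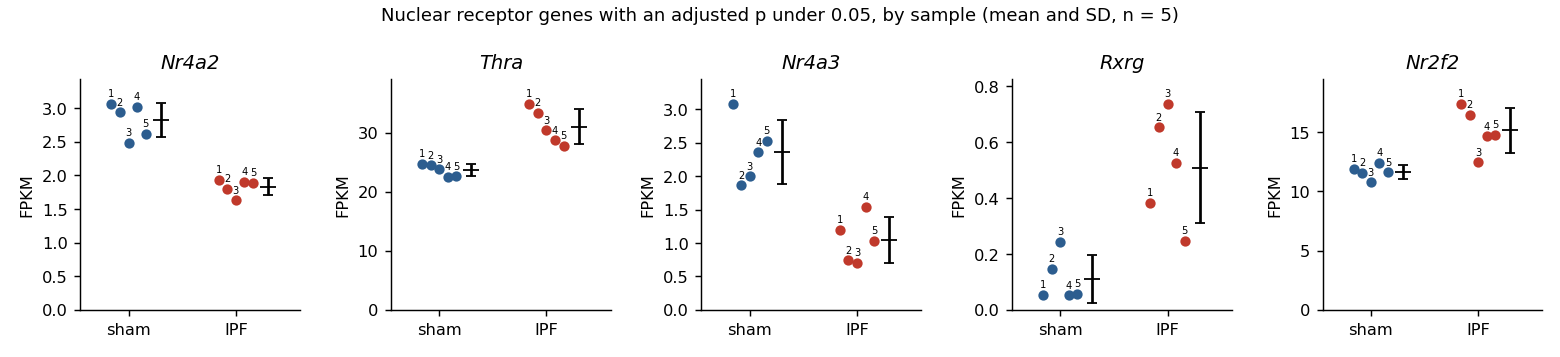
FPKM of the 5 called members in each sample, IPF in red and Sham in blue (1 point per sample, n = 5 per group, lines at the group means with SD). In each panel the IPF and sham samples do not overlap, narrowly so for Rxrg (0.246 against 0.244 FPKM) and Nr2f2 (12.45 against 12.43 FPKM).

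Of the retinoid receptors, Rxrg rose and the other tested genes were not called. Rxrg (ENSMUSG00000015843, chromosome 1, 167598384 to 167639623, plus strand) encodes RXR gamma, the RXR form known mainly from muscle and brain. It was at 0.384, 0.653, 0.737, 0.526 and 0.246 FPKM in the IPF samples and at 0.0528, 0.146, 0.244, 0.0523 and 0.0571 FPKM in the sham samples. The lowest IPF sample and the highest sham sample were almost equal. Means were 0.509 ± 0.199 and 0.110 ± 0.0846 FPKM, with a log2 fold change of 1.55 (SE 0.33, limma adjusted p = 0.0198). These levels rest on 10 to 32 reads per IPF sample and 2 to 9 reads per sham sample. The adjusted p was 0.0585 without IPF replicate 2 and 0.0541 without IPF replicate 4. The size depended on the pseudocount, with log2 fold changes of 0.44 at a pseudocount of 1 and 2.27 at 0.01. Summed cardiac muscle markers were high in IPF replicate 4 and sham replicate 3, where Rxrg was at 0.526 and 0.244 FPKM. Its level was as high or higher in IPF replicates 2 and 3, where the summed cardiac markers were at 3.57 and 2.61 FPKM. Summed skeletal muscle markers (0 of 4 tested called) were at 2.07, 2.99, 2.44, 2.92 and 1.14 FPKM in IPF replicates 1 to 5. They were highest in replicates 2, 3 and 4 and lowest in replicate 5, as was Rxrg. In sham replicates 1 to 5 they were at 1.75, 1.71, 1.94, 2.31 and 1.15 FPKM. There the order differed, with the markers highest in replicate 4, where Rxrg was lowest, and Rxrg highest in replicate 3. The part of muscle RNA in the Rxrg difference was not tested.

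Rxrg made up little of the RXR transcript pool, 0.570% to 1.72% of summed RXR FPKM in IPF samples and 0.124% to 0.597% in sham samples. The major forms were Rxra at 25.1 ± 1.52 FPKM in IPF and 24.2 ± 1.68 in Sham, and Rxrb at 16 ± 1.29 and 15.6 ± 0.593 FPKM. Their differences had 95% intervals of -0.09 to 0.19 and -0.10 to 0.17 on the log2 scale. The retinoic acid receptors Rara (15.7 and 14.2 FPKM in IPF and Sham), Rarg (24.4 and 22.1) and Rarb (0.408 and 0.326) had log2 fold changes of 0.14, 0.15 and 0.16. None of the 3 was called. Rarb shares 4624 bases with Top2b on the other strand, and Top2b was at 14.1 FPKM in IPF, so the low Rarb values are uncertain.

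Retinoic acid target genes gave 2 calls among 8 tested, both higher in IPF, with a list median of 0.22 on the log2 scale. Dhrs3, a retinaldehyde reductase, rose from 29.4 ± 3.43 to 38.8 ± 4.58 FPKM (log2 fold change 0.40, limma adjusted p = 0.0394). Hic1, a transcriptional repressor, rose from 6.30 ± 0.956 to 10.1 ± 2.39 FPKM (0.65, adjusted p = 0.0442). Support was thin, since Dhrs3 passed in 2 and Hic1 in 1 of the 10 fits that left out 1 sample. Among those fits both were called only without IPF replicate 5, and the list had no call when genes were not filtered or when the variance trend was dropped. The retinoid uptake, storage and synthesis genes gave 0 calls among 14 tested by limma, 7 of them with positive and 7 with negative estimates.

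Thra rose in IPF lungs, and Thrb was not called. Both encode receptors for thyroid hormone. Thra (ENSMUSG00000058756, chromosome 11, 98740638 to 98769006, plus strand) was at 34.9, 33.4, 30.4, 28.7 and 27.9 FPKM in IPF replicates 1 to 5. The sham replicates were at 24.7, 24.5, 23.8, 22.5 and 22.6 FPKM. All IPF samples exceeded all sham samples. Means of 31.1 ± 3.00 and 23.6 ± 1.02 FPKM gave a 1.31-fold higher level (log2 fold change 0.39, SE 0.07, limma adjusted p = 0.00814), and the call held in all 10 fits without 1 sample. The last 1075 bases of Thra (98767932 to 98769006) overlap the clock gene Nr1d1 on the opposite strand. Nr1d1 was at 2.08 ± 1.31 FPKM in IPF and 36.3 ± 5.08 FPKM in Sham, lower in IPF (log2 fold change -4.23, limma adjusted p = 3.36e-05). The use of strand in the counting is not stated, so reads of the shared stretch cannot be assigned to either gene. Thrb was at 2.13 ± 0.384 and 2.11 ± 0.276 FPKM in IPF and Sham (95% interval of the log2 difference -0.30 to 0.30).

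Among 9 tested thyroid hormone genes, 1 rose and 1 fell. Slc16a10, a transporter of aromatic amino acids and thyroid hormone, rose from 2.32 ± 0.379 to 3.47 ± 0.376 FPKM (log2 fold change 0.57, limma adjusted p = 0.0202). Klf9, a transcription factor induced by thyroid hormone and by glucocorticoids, fell from 79.8 ± 10.7 to 45.6 ± 17.3 FPKM (-0.87, adjusted p = 0.0266). The Klf9 call held in 2 of 10 fits without 1 sample, with 75.5 FPKM in IPF replicate 5 and 68.2 to 97.1 FPKM in Sham. The Slc16a10 call was lost without IPF replicate 4.

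Vdr, the vitamin D receptor, was at 1.13 ± 0.160 FPKM in IPF and 1.53 ± 0.377 in Sham, a log2 difference of -0.38 with a 95% interval of -0.78 to 0.02 (limma adjusted p = 0.276). One of 5 tested vitamin D genes was called. Cyp27a1, a mitochondrial enzyme that hydroxylates vitamin D and sterols, rose from 12.6 ± 0.657 to 15.1 ± 0.623 FPKM (log2 fold change 0.26, limma adjusted p = 0.0191). It lost the call without IPF replicate 1, 2 or 4.

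Nr2f2 was the only called member of the NR2 orphan receptors. It encodes COUP-TFII, a receptor known for specifying venous and lymphatic endothelium. Nr2f2 (ENSMUSG00000030551, chromosome 7, 70351944 to 70366735, minus strand) was at 17.4, 16.5, 12.45, 14.6 and 14.8 FPKM in IPF samples and 11.9, 11.5, 10.8, 12.43 and 11.6 FPKM in sham samples. IPF replicate 3 was barely above the highest sham sample. The means were 15.1 ± 1.89 and 11.6 ± 0.611 FPKM, with a log2 fold change of 0.37 (SE 0.09, limma adjusted p = 0.028). The call depended on single samples. It held in 4 of 10 fits without 1 sample, and the adjusted p lay between 0.0572 and 0.0751 without IPF replicate 1, 2 or 4 or sham replicate 2, 3 or 5. The endothelial marker sum also separated the groups (995 to 1128 FPKM in IPF, 855 to 904 in Sham), and overlapped without the called marker Cldn5, at 563 to 681 FPKM in IPF and 544 to 617 in Sham. Tek also had no overlap (115.5 to 144.1 FPKM in IPF, 94.9 to 111.3 in Sham; log2 fold change 0.26, limma adjusted p = 0.0636) and was called in 3 of 8 alternatives. Emcn, Cdh5 and Pecam1 overlapped, with log2 fold changes of 0.20, 0.12 and -0.05. The part of endothelial content in the Nr2f2 difference was not tested. Nr2f2 shares 1826 bases with the antisense gene B130024G19Rik, which was at 0.830 FPKM in IPF and 0.684 FPKM in Sham.

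The other NR2 members were not called. Nr2f1, which encodes COUP-TFI, was at 3.45 ± 1.01 FPKM in IPF and 2.49 ± 0.241 FPKM in Sham (log2 fold change 0.41, limma adjusted p = 0.262). Its IPF replicate 3, at 1.99 FPKM, lay below all sham samples while the other 4 lay above them, and without that sample the adjusted p was 0.0244. Nr2f6 was at 12.9 ± 0.630 and 11.2 ± 1.59 FPKM in IPF and Sham (0.22, adjusted p = 0.189), and 0.0403 without sham replicate 4. The testicular receptors Nr2c1 (5.06 and 5.03 FPKM in IPF and Sham) and Nr2c2 (2.74 and 3.26) had log2 fold changes of 0.01 and -0.24. On the opposite strand, Nr2c2 shares 4770 bases with Mrps25 (2.74 FPKM in IPF, 2.53 in Sham) and Nr2f6 shares 5239 bases with Ocel1 (3.49 and 3.31 FPKM), so both are uncertain. Nr2c2ap was at 0.821 and 0.671 FPKM (0.29), and it is uncertain because it shares 2417 bases with Rfxank on the other strand. Partner genes of the COUP-TF and orphan receptors, such as Zfpm2 and Prox1, gave 0 calls among 7 tested by limma.

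No PPAR gene was called. These receptors bind fatty acids and control genes of lipid oxidation and storage. Ppara was at 0.720 ± 0.219 FPKM in IPF and 0.628 ± 0.0585 in Sham, Ppard at 4.09 ± 0.372 and 4.74 ± 0.493, and Pparg at 2.82 ± 0.774 and 3.05 ± 0.745. The log2 fold changes were 0.14, -0.20 and -0.12, with limma adjusted p-values of 0.745, 0.238 and 0.802. For Ppard, 4 IPF samples lay below all sham samples. Alveolar macrophages, a known site of Pparg expression, had summed markers of 218 to 389 FPKM in IPF and 206 to 362 FPKM in Sham, with 0 of 6 called.

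Some PPAR target genes did differ, with 1 higher and 3 lower among 21 tested. Acadm, the medium-chain acyl-CoA dehydrogenase, rose from 14.7 ± 0.979 to 20.2 ± 0.454 FPKM (log2 fold change 0.46, limma adjusted p = 0.00105). Cpt1a, which admits long-chain fatty acids to mitochondria, fell from 42.4 ± 7.35 to 29.4 ± 1.61 FPKM (-0.51, adjusted p = 0.017). Ucp2, a mitochondrial carrier, fell from 78.6 ± 6.45 to 56.4 ± 5.55 FPKM (-0.48, adjusted p = 0.00585). Pdk4, a kinase that blocks pyruvate oxidation, fell from 8.28 ± 1.43 to 3.17 ± 2.37 FPKM (-1.56, adjusted p = 0.0173), with IPF replicate 5 at 7.37 FPKM against 1.81 to 2.47 in the other IPF samples. Members of the fatty acid oxidation pathway thus moved in both directions, and the list median was 0.0013 on the log2 scale. Without IPF replicate 5 the list had 2 higher and 6 lower calls, and with voom on the recovered reads 2 higher and 5 lower. Acadm and Pdk4 also stand in the list of estrogen and estrogen-related receptor targets.

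Of the liver X receptors, neither Nr1h3 nor Nr1h2 was called. They sense oxysterols and drive cholesterol export and fatty acid synthesis. Nr1h3 was at 29.4, 28.9, 23.2, 27.2 and 26.3 FPKM in IPF and 18.7, 24.5, 24.1, 23.2 and 22.5 FPKM in Sham. Of the IPF samples, 4 lay above all sham samples, and IPF replicate 3 lay within them. The log2 fold change was 0.26 (95% interval 0.07 to 0.45, limma adjusted p = 0.119). Nr1h2 was at 26.9 ± 2.57 and 27.0 ± 0.522 FPKM (interval -0.16 to 0.13). The bile acid receptor Nr1h4 rested on 0 to 11 reads per sample (0.167 FPKM in IPF, 0.112 in Sham), and no direction can be read at this depth.

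Of 12 tested liver X receptor target genes, 3 rose and 0 fell, with a list median of 0.16 on the log2 scale. Scd1, the stearoyl-CoA desaturase, rose from 393 ± 52.4 to 660 ± 136 FPKM (log2 fold change 0.73, limma adjusted p = 0.016). It was at 574, 613, 808, 798 and 508 FPKM in IPF replicates 1 to 5, highest in replicates 3 and 4, and at 330 to 459 FPKM in Sham. Summed adipocyte markers (0 of 4 tested called) were also highest in IPF replicates 3 and 4, at 13.2 and 9.15 FPKM against 4.34 to 7.62 in the other samples. The part of adipocyte RNA in the Scd1 difference was not tested. Lpcat3, a phospholipid acyltransferase, rose from 14.4 ± 0.565 to 19.0 ± 1.40 FPKM (0.39, adjusted p = 0.00396). Srebf1, the regulator of fatty acid synthesis, rose from 21.3 ± 0.926 to 24.6 ± 1.17 FPKM (0.21, adjusted p = 0.0414), a call that held in 2 of 10 fits without 1 sample. The 9 genes not called had log2 fold changes from -0.38 for the cholesterol exporter Abca1 to 0.37 for the apolipoprotein gene Apoe. For Apoe every IPF sample lay above every sham sample (224 to 289 FPKM against 153 to 215; limma adjusted p = 0.0675), and it was called in 2 of 8 alternatives. Abca1 had an adjusted p of 0.353 by limma, and 0.0410 without IPF replicate 5, where it was called lower.

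**Figure D4:**
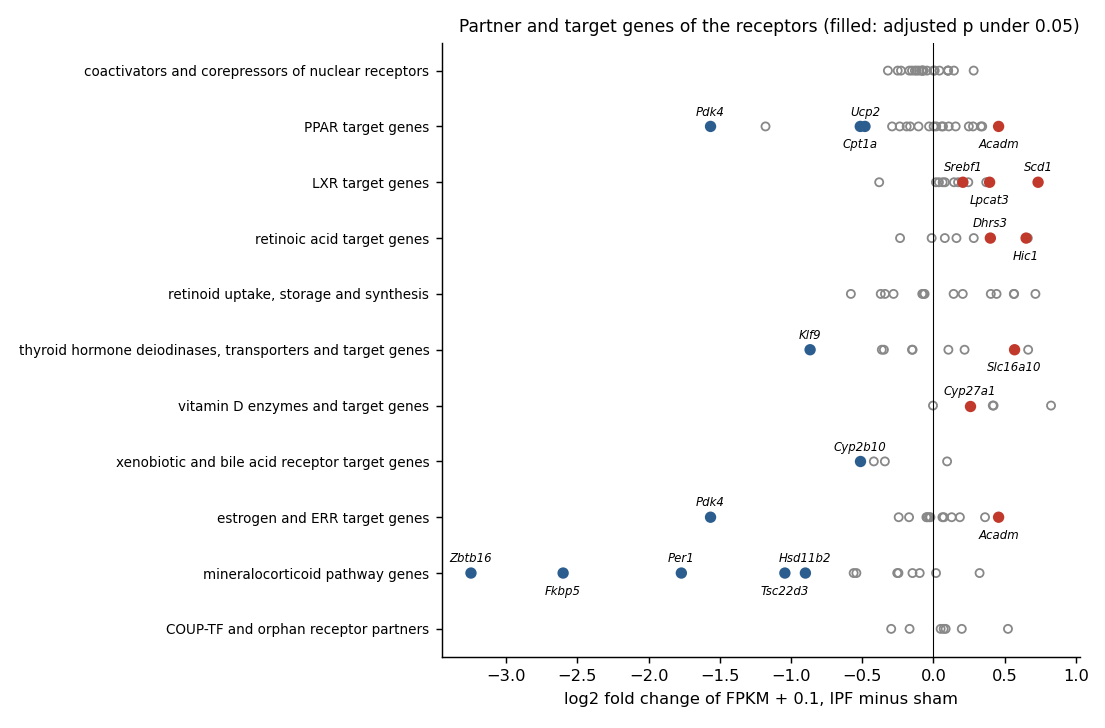
Log2 fold changes (FPKM + 0.1, IPF minus Sham) of the tested genes in 11 lists of receptor partners and target genes, 1 point per gene, filled where the adjusted p was below 0.05. Calls were higher in IPF in the liver X receptor (3 of 12 tested), retinoic acid (2 of 8) and vitamin D (1 of 5) lists. They were lower in the mineralocorticoid (5 of 13) and xenobiotic (1 of 4) lists. The PPAR (4 of 21), thyroid (2 of 9) and estrogen (2 of 13) lists held calls in both directions, and 3 lists held none. Of all genes tested, 5.85% were called.

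Nr3c2, the mineralocorticoid receptor, did not pass the test. Its level was 2.18 ± 0.241 FPKM in IPF and 2.13 ± 0.190 in Sham, with a log2 difference of 0.03 and a 95% interval of -0.19 to 0.26. Of 13 tested genes of its pathway, 5 fell and 0 rose, and the list median was -0.54. Fkbp5, a chaperone partner of steroid receptors, was at 2.07, 1.61, 1.72, 2.08 and 9.11 FPKM in IPF and 19.0, 13.7, 19.3, 14.5 and 14.7 FPKM in Sham (log2 fold change -2.60, limma adjusted p = 0.00373). Zbtb16, a zinc finger transcription factor, fell from 32.8 ± 8.34 to 6.67 ± 10.1 FPKM (-3.25, adjusted p = 0.0162). Both were nearest to the sham range in IPF replicate 5, where Zbtb16 was at 24.65 FPKM against 1.11 to 3.81 in the other IPF samples.

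Per1 fell from 41.0 ± 5.21 to 13.3 ± 7.68 FPKM (log2 fold change -1.77, limma adjusted p = 0.00574) and is itself a clock gene. Hsd11b2, the enzyme that inactivates glucocorticoids and so guards the mineralocorticoid receptor, fell from 2.00 ± 0.311 to 1.04 ± 0.229 FPKM (-0.90, adjusted p = 0.0085). The fifth, Tsc22d3, was named after its values were seen, to complete the count. It fell from 162 ± 13.8 to 84.7 ± 41.0 FPKM (-1.04, adjusted p = 0.0247) and kept the call in 4 of 10 fits without 1 sample. Fkbp5, Zbtb16, Per1 and Tsc22d3 are also known glucocorticoid targets. The summed clock genes, which include Per1 and hold genes that rose and genes that fell, were at 308 to 366 FPKM in Sham. Their sum was 178 FPKM in IPF replicate 5, against 102 to 122 in the other IPF samples. The part of the clock in the changes of the called mineralocorticoid pathway genes, Klf9 and Pdk4 was not tested. Genes of sodium transport gave no call, with log2 fold changes of -0.54 for Scnn1a, -0.10 for Scnn1b, -0.25 for Scnn1g and 0.02 for the kinase Sgk1.

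The estrogen receptor genes Esr1 (0.193 FPKM in IPF, 0.172 in Sham) and Esr2 (1.38 and 1.49) were not called, with log2 fold changes of 0.06 and -0.08. The estrogen-related receptors act without estrogen and control mitochondrial genes. Esrra was at 12.6 ± 0.407 FPKM in IPF and 13.5 ± 0.962 in Sham (log2 fold change -0.10, 95% interval -0.23 to 0.03), and Esrrg at 0.197 and 0.255 FPKM (-0.28). Of 13 tested estrogen and estrogen-related receptor targets, Acadm rose and Pdk4 fell, as given above. Nr5a2, a phospholipid-binding receptor known from liver and gut, was at 0.423 FPKM in IPF and 0.417 in Sham. Nr6a1, the germ cell nuclear factor, was at 0.597 and 0.516 FPKM (log2 fold change 0.18), and neither was called.

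Only 4 of 14 xenobiotic and bile acid receptor targets reached the level needed for testing. Cyp2b10, the classic CAR target, fell from 142 ± 17.1 to 101 ± 21.4 FPKM (log2 fold change -0.52, limma adjusted p = 0.0489) and kept the call in 1 of 10 fits without 1 sample. Secretory airway markers had a median sum of 5482 FPKM in IPF and 17470 in Sham (0 of 5 called). Their ranges overlapped widely, at 3713 to 27460 FPKM in IPF, highest in IPF replicate 3, and 11530 to 23000 in Sham. Scgb1a1, the club cell secretoglobin, made up most of these sums, at means of 10240 FPKM in IPF and 16600 in Sham. It was not called (log2 fold change -1.12, adjusted p = 0.317 by limma), with 3 IPF samples below all sham samples. Cyp2f2 also had a negative estimate (-0.43), while Scgb3a2, Bpifa1 and Scgb3a1 had positive ones (0.55, 0.29 and 0.17). The part of airway content in the Cyp2b10 change was not tested. Its receptor gene Nr1i3 had at most 4 reads in a sample.

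Of the 39 members, 38 lie on autosomes. Coactivators and corepressors gave 0 calls among 21 tested by limma, and their estimates ran from -0.32 for Ep300 to 0.28 for Ncoa7, with a median of -0.076.

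**Figure D5:**
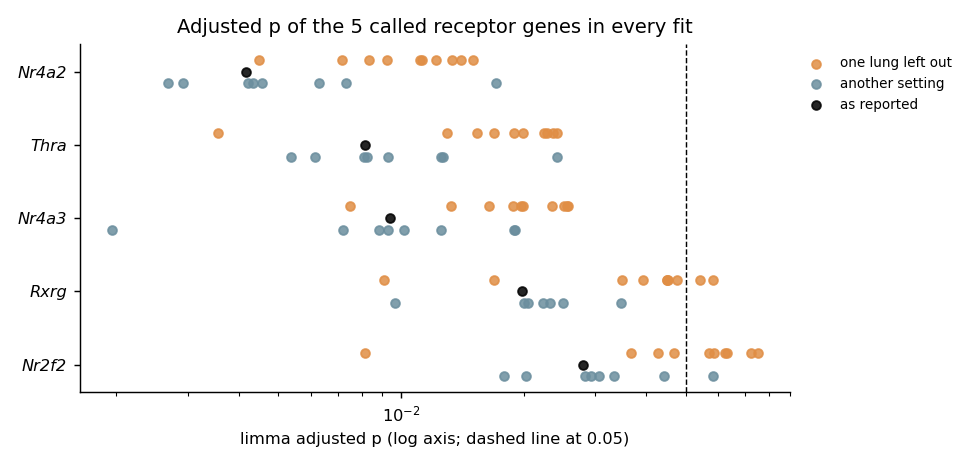
Limma adjusted p (log axis, dashed line at 0.05) of the 5 called members as reported (black), under each processing alternative (blue-grey) and with each sample left out (orange), 1 point per fit. Nr4a2, Nr4a3 and Thra were called in all 10 fits without 1 sample, Rxrg in 8 and Nr2f2 in 4.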

How the data were processed

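Whole-lung RNA from 5 IPF and 5 sham mice at P30 was analyzed. After trimming (Fastp) and alignment (HISAT2), the authors used StringTie for quantification. The deposited table holds FPKM per gene. The methods name GRCm39, but gene positions in the table are those of GRCm38, which is used here. The submitters' processing notes also list Bowtie 0.12.2. The labels name a NEBNext Ultra kit and the methods a KAPA kit, and strand use in counting is not stated.

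FPKM times gene length gave whole reads (tolerance 0.01 read), from which depth was taken. Because FPKM are not counts, log2(FPKM + 0.1) was tested with limma 3.58.1 (R 4.3.3), with a variance trend and no covariate, over 20448 genes with a mean of at least 0.1 FPKM. This replaced the count-based test that the methods name. P-values were Benjamini-Hochberg adjusted over all genes, and genes were called at an adjusted p below 0.05. Fold changes on this scale understate changes of low genes. The test code was also run on simulated counts that gave every gene the same extra spread between samples. That setting is simpler than these samples, so it does not give the error rate of the test here. Groups came from the sample titles, and p-values measure the spread between these samples.

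All called members were named with every value, other tested members with group means, and at most the 4 called genes of smallest p in each list. One further gene list is not reported here. Members and lists were chosen with earlier results of these data known. The alternatives were other pseudocounts, filters, scaling, no variance trend, a replicate block, limma voom on the recovered reads, and leaving out each sample. Tables were handled in Python 3.11.15.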

Additional observations from a re-analysis of the deposited data

Results flagged for a closer look

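In 96 groups of 5 samples over 48 genes, 6 held a sample far from the other 4 (gap over range above 0.71 on the log2(FPKM + 0.1) scale), and chance gives about 1 in 20 such groups. Among the members, Vdr was at 0.849 FPKM in IPF replicate 2 against 1.15 to 1.25 in the other IPF samples. Nr6a1 was at 0.423 FPKM in IPF replicate 5 against 0.621 to 0.682. Esrrg was at 0.392 FPKM in IPF replicate 3 against 0.142 to 0.155.

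Among the other genes, IPF replicate 5 stood apart for Pdk4 (7.37 FPKM against 1.81 to 2.47) and Fkbp5 (9.11 against 1.61 to 2.08). Sham replicate 1 stood apart for Zbtb16, at 47.3 FPKM against 26.9 to 31.5 in the other sham samples. IPF replicate 5 thus accounted for 3 of the 6, and it also had the highest neutrophil marker sum (286 FPKM). The clock genes of that sample lay nearer to Sham, with Nr1d2 at 17.3 FPKM against 2.79 to 4.58 in the other IPF samples and a summed clock level of 178 FPKM against 102 to 122. Members called without it were again 3 higher and 2 lower.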

How the results depend on the processing

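The 2 members called lower were 2 under every alternative and in every fit without 1 sample. The number called higher was 3, and 1 to 4 without 1 sample, with 1 without IPF replicate 2 and without IPF replicate 4. Calls over all genes numbered 1196, and 775 (without IPF replicate 4) to 1620 (without IPF replicate 5) without 1 sample. Over the other alternatives they ranged from 908 with no filter to 1483 with voom on the recovered reads. Nr2f2 lost its call without the variance trend (adjusted p = 0.0584), and Rxrg was not tested at a mean of at least 1 FPKM. The causes were not tested. Directions that turned belonged to uncalled members near 0: Nr1h4 (-0.21 with a pseudocount of 0.01, -0.23 with voom), Thrb (-0.0028 with median-of-ratios scaling, -0.00041 with voom) and Nr5a2 (0.0027 with a pseudocount of 1). Without 1 sample the log2 fold changes were -0.00126 to 0.25 for Ppara, -0.23 to 0.00723 for Pparg, -0.000357 to 0.0698 for Rxrb, -0.0553 to 0.36 for Rarb, -0.18 to 0.00363 for Esr2, -0.0265 to 0.46 for Nr1h4, -0.0140 to 0.0816 for Nr3c2, -0.0957 to 0.19 for Esr1, -0.0512 to 0.0386 for Nr1h2, -0.0303 to 0.0515 for Nr2c1, -0.0728 to 0.0703 for Thrb, -0.14 to 0.14 for Nr5a2. Low read numbers limit Rxrg, Nr1h4 and the 9 untested members. Counts for the target lists under these alternatives were added after the data had been seen.

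Replicate numbers were shared by the groups. Deviations of same-numbered samples from their group means were weakly correlated (0.166, 0.092, 0.091, -0.042 and 0.099 for replicates 1 to 5). Replicates 1, 3 and 5 correlated best with their own number. What the shared numbers stand for is not given in the sources used here, and these values do not settle whether the samples were paired. With a replicate block, 3 members were higher, 2 lower and 1045 genes called.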

Other observations

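Other letter matches in the 250 bases before the starts of the members were counted beside those in all 32851 RefSeq windows, with no test made. The receptor half-site AGGTCA was in 17.9% of the 56 member windows and 14.0% of all windows. The GC box GGGCGG was in 42.9% and 32.7%, and the E-box CACGTG in 8.93% and 6.02%, each searched on both strands. No member window held the D-box TTATGTAA, the element TAGGTCA (which contains AGGTCA) or the glucocorticoid and mineralocorticoid element, found in 0.82%, 2.23% and 0.39% of all windows.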
